A study of Mus musculus with 9 samples.

Results

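NF-κB signalling and the transcription factor Stat3 were followed through 10 listed genes of the 55450 counted in RNA of dissected mouse substantia nigra. The genes were taken by name, with earlier results of these data known: the subunits Nfkb1, Nfkb2, Rela and Relb, the inhibitors Nfkbia and Nfkbie, the kinase Ikbke, the deubiquitinase Tnfaip3, the nuclear IκB protein Bcl3, and Stat3. The 9 libraries fell into 3 groups of 3, named CTR, CX3 and DAT with the letters A, B and C. CTR came from CX3CR1-CreERT2 mice that received a control lentivirus, whose protein the labels give as GFP and the study's methods as a destabilized GFP. CX3 came from mice of the same Cre line that received a Synuclein-expressing lentivirus, and DAT from DAT-Cre mice that received that same Synuclein-expressing vector. The inserts of all 3 groups stood behind the Ef1a promoter in a FLEX cassette, which only Cre recombinase turns into the reading direction. CX3CR1-CreERT2 places a tamoxifen-dependent Cre in microglia and other cells that use the Cx3cr1 promoter, while DAT-Cre places Cre in dopamine neurons. Tamoxifen was described for the CX3CR1-CreERT2 mice, at 75 mg per kg on 4 days, so CTR and CX3 shared it. The mice were male, the vectors were injected into the nigra at 8 weeks of age by the study's results and in mice bought at 9 weeks by its methods, and tissue was taken 5 weeks later. The sources used here do not say how many animals gave a library, so p-values measure the spread between libraries, which may be technical.

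NF-κB is a family of dimeric transcription factors that IκB proteins hold in the cytoplasm. Receptors for TNF and interleukin-1 act through the IκB kinases to have IκB degraded, and the freed dimers of RelA and the p50 product of Nfkb1 enter the nucleus, while dimers of RelB and the p52 product of Nfkb2 serve a slower, non-canonical branch. Nfkbia and Tnfaip3 are themselves classical NF-κB target genes and close negative feedback loops. Stat3 is activated by Janus kinases beneath the receptors of the interleukin-6 family and is known in brain tissue for its part in reactive astrocytes. Pathway activity also depends on control of these proteins after translation. The level of their messenger RNA is therefore a measure of its own and not of pathway activity.

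Between 21592817 and 39475428 reads were counted on genes in a library, and 3 counts, the smallest signal taken as countable, corresponded to 0.0779 to 0.151 CPM, the unit of counts scaled with edgeR's TMM library sizes. This floor covers counting error only. All 10 members passed the filter on low counts, with 33 or more counts in every library. CX3 A stood apart from the other CX3 libraries and DAT B from the other DAT libraries: the squared difference between libraries of a group was 1.46 to 1.80 times that of random sampling in CTR, up to 6.50 times in CX3 and up to 16.5 times in DAT. The reverse strand held 49.8% to 49.9% of the strand-specific counts although the kit was described as stranded, so strand does not separate a gene from its antisense neighbour. In the counts without regard to strand, reads on exon bases shared by such genes fall under ambiguous. These reads were left out, so the counts of such genes may be low. Such neighbours covered 18.1% of the exon bases of Nfkb2, 6.51% of Bcl3, 2.48% of Ikbke and 0.756% of Stat3, and none of the other 6 members. All 6 markers of dopamine neurons were above the floor in every library.

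The members are protein-coding genes, and their exon reads were counted. On GRCm38 the subunit genes are Nfkb1 (ENSMUSG00000028163.17) on chromosome 3 from 135584655 to 135691547, Nfkb2 (ENSMUSG00000025225.15) on chromosome 19 from 46304320 to 46312385, Rela (ENSMUSG00000024927.8) on chromosome 19 from 5637483 to 5648130 and Relb (ENSMUSG00000002983.17) on chromosome 7 from 19606217 to 19629438. The IκB genes are Nfkbia (ENSMUSG00000021025.8) on chromosome 12 from 55489410 to 55492647, Nfkbie (ENSMUSG00000023947.8) on chromosome 17 from 45555703 to 45563169 and Bcl3 (ENSMUSG00000053175.17) on chromosome 7 from 19808462 to 19822770. The enzyme genes are Ikbke (ENSMUSG00000042349.13) on chromosome 1 from 131254343 to 131279606 and Tnfaip3 (ENSMUSG00000019850.11) on chromosome 10 from 19000910 to 19015657, and Stat3 (ENSMUSG00000004040.16) lies on chromosome 11 from 100885098 to 100939540.

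The promoters of 4 members are shown first, since Nfkbia and Nfkbie encode related inhibitors of which 1 passed the tests below, and Ikbke and Bcl3 differed past 1.5-fold between CX3 and DAT. Sequences are those of RefSeq on GRCm38.p6, 5′ to 3′ toward the start of the gene, without annotated exon bases, and 8 of the 10 members had an entry. Capitals mark a match to the κB consensus, the 10-base motif that NF-κB dimers bind, which was searched on both strands. The inhibitor genes are Nfkbia at chr12:55492648-55492897 on the minus strand and Nfkbie at chr17:45555450-45555699 on the plus strand, and the other genes are Ikbke at chr1:131279607-131279813 and Bcl3 at chr7:19822771-19823005, both on the minus strand.
Nfkbia: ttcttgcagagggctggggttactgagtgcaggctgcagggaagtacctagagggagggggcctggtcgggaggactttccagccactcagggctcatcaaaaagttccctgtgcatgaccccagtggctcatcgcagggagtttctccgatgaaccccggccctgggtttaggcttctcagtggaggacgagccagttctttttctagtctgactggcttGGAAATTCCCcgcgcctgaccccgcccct
Nfkbie: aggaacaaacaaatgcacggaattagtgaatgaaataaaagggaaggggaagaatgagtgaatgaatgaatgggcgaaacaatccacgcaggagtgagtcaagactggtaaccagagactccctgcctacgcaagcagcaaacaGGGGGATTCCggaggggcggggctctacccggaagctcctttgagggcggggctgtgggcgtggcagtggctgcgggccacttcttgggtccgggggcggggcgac
Ikbke: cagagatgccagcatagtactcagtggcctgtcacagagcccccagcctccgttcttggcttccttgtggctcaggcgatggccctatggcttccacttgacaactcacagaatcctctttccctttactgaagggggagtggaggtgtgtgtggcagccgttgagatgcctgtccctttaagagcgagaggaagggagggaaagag
Bcl3: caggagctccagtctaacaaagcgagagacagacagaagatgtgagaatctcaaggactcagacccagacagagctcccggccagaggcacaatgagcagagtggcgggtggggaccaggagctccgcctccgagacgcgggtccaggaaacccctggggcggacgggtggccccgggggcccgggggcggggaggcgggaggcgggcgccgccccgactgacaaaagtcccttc

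In the 250 bases before the start, the κB consensus matched in Nfkbia at -29 to -20, counted from the start, and in Nfkbie at -106 to -97. The first listed promoter of Tnfaip3 held 2 matches, at -125 to -116 and -12 to -3, and that of Nfkb2 held 3, of which 2 overlapped. No match was found in these windows of Rela, Ikbke, Bcl3 or Stat3. For comparison, 3.90% of 32817 promoters of the same length held a match. The STAT motif TTCNNNGAA, which reads the same on both strands, was present in 7.01% of those promoters and, among the members, in Nfkb2 alone. These matches describe letters in the reference genome, and binding was not measured.

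**Figure D1:**
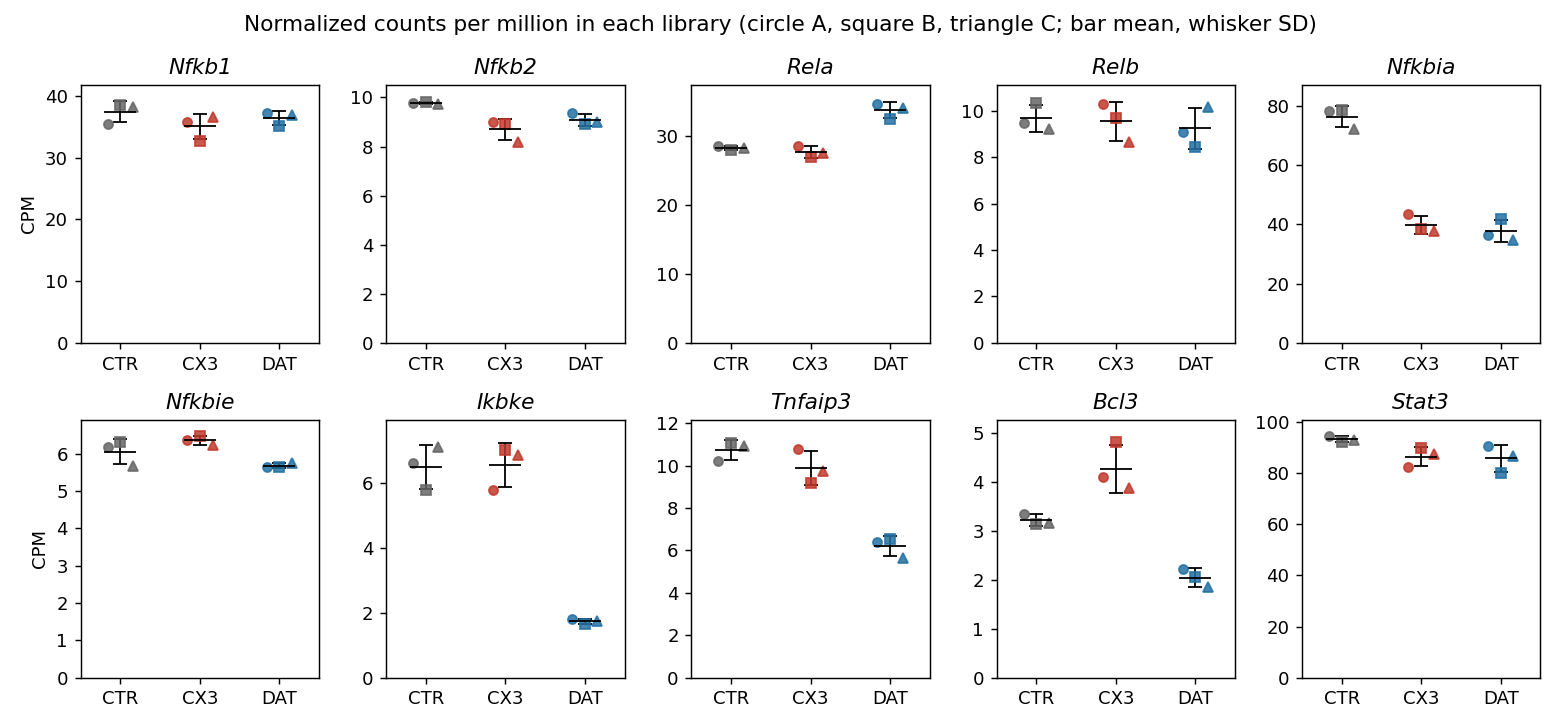
Normalized CPM (vertical axes from 0) of the 10 members in the 3 CTR, 3 CX3 and 3 DAT libraries, with group means and SD. Nfkbia lies at 72.2 to 78.6 CPM in CTR and at 34.8 to 43.4 CPM in the other 6 libraries, and Ikbke is below 2 CPM in the DAT libraries only.

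The comparison of CX3 with CTR sets the Synuclein-expressing vector against the control vector, with Cre line and tamoxifen described as the same. Other traits of the tissue differed too. Choroid plexus markers summed to 46.5 to 47.5 CPM in CTR and 1475 to 1584 in CX3. Cx3cr1 itself had 102 CPM on average in CTR and 44.6 in CX3. The part of these differences in the members' levels was not tested, so a change between CX3 and CTR is not assigned to the vector here. Nfkbia, which encodes IκBα, the inhibitor that retains RelA dimers in the cytoplasm, had 78.1, 78.6 and 72.2 CPM in CTR and 43.4, 38.3 and 37.7 CPM in CX3. Every CX3 library was below every CTR library. Nfkbia fell by 0.94 ± 0.07 (SE) on the log2 scale in CX3, to 0.522 times its CTR level (edgeR adjusted p = 2.97e-07), and was the only member past a 1.5-fold change. Bcl3, an IκB protein that works in the nucleus with p50 and p52, had 3.35, 3.13 and 3.17 CPM in CTR and 4.10, 4.82 and 3.88 CPM in CX3. The groups did not overlap, and Bcl3 rose 1.33-fold, by 0.41 ± 0.12 (SE) on the log2 scale (edgeR adjusted p = 0.0231). Thus 1 of 10 members rose and 1 fell, where 14.0% of the 20892 genes tested rose and 16.5% fell, and 1.70% fell past 1.5-fold. The Bcl3 call was lost without CTR B (edgeR adjusted p = 0.0804), CTR C (0.0710) or CX3 B (0.104) and in forward-strand counts (0.142), which left 1 member called.

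The other 8 members differed little between CX3 and CTR, with log2 fold changes from -0.17 to 0.07. Ikbke, the kinase IKKε of the IκB kinase family, which also serves interferon induction, had 6.60, 5.77 and 7.10 CPM in CTR and 5.79, 7.02 and 6.85 CPM in CX3. These libraries overlapped, and the difference was 0.02 ± 0.11 (SE) on the log2 scale (edgeR adjusted p = 0.927). Tnfaip3, which encodes the NF-κB inhibitor A20, had 10.2, 11.1 and 10.9 CPM in CTR and 10.8, 9.18 and 9.74 CPM in CX3. Those libraries overlapped too, with a log2 fold change of -0.12 ± 0.08 (SE, edgeR adjusted p = 0.319).

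Markers of several cell types moved with these groups. The summed level of 8 microglial markers was 756 to 765 CPM in CTR, 525 to 533 in CX3 and 514 to 530 in DAT. Of the 8, 5 were lower in CX3 than in CTR and 7 in DAT, where 16.5% and 27.9% of all genes tested were lower. The 6 astrocyte markers summed to 3268 to 3339 CPM in CTR, 2196 to 2443 in CX3 and 2546 to 2879 in DAT. Of these, 5 were lower in CX3 than in CTR. In DAT against CTR only 2 were lower, 1 was higher and 3 were not called. Aqp4 had 927 CPM on average in CTR and 517 in DAT, while Sox9 had 34.1 and 51.6. The 6 markers of dopamine neurons separated the groups as well, at 414 to 417 CPM in CTR, 590 to 598 in CX3 and 351 to 355 in DAT, with 5 of the 6 higher in CX3 than in CTR and 3 lower and 1 higher in DAT than in CTR. The part of these markers in the Nfkbia levels of both groups was not tested. In whole tissue, fewer cells of a type and less RNA per cell cannot be told apart.

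The comparison of DAT with CTR sets the vector in dopamine neurons against the control. Cre line, tamoxifen and vector changed together, so their effects cannot be told apart. The libraries differed as well, with 4.15% to 4.31% of reads on no feature in DAT and 7.47% to 7.61% in CTR. The part of this difference was not tested. Nfkbia had 36.3, 41.9 and 34.8 CPM in DAT, all below the lowest CTR library. It fell by 1.02 ± 0.07 (SE) on the log2 scale, to 0.492 times the CTR level (edgeR adjusted p = 3.01e-08). Ikbke had 1.81, 1.66 and 1.76 CPM in DAT, which is 33 to 66 counts a library, against 5.77 CPM in the lowest CTR library. Ikbke was 3.69-fold lower, a log2 fold change of -1.88 ± 0.14 (SE, edgeR adjusted p = 3.90e-08), the largest change among the members in this comparison. Tnfaip3 had 6.39, 6.54 and 5.66 CPM in DAT, below all CTR libraries, and was 1.73-fold lower (log2 fold change -0.79 ± 0.09 SE, edgeR adjusted p = 4.42e-06).

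Bcl3 lay at 2.22, 2.06 and 1.84 CPM in DAT, also below every CTR library, and fell by 0.64 ± 0.14 (SE) on the log2 scale (edgeR adjusted p = 0.00151). Rela, which encodes the RelA or p65 subunit that carries most of the activating function, had 28.5, 28.0 and 28.3 CPM in CTR and 34.7, 32.4 and 34.1 CPM in DAT. All DAT libraries were above all CTR libraries, by 0.26 ± 0.05 (SE) on the log2 scale or 1.20-fold (edgeR adjusted p = 0.000585). In all, 1 of 10 members rose and 4 fell, where 32.0% of genes tested rose and 27.9% fell. Nfkbia, Ikbke and Tnfaip3 fell past 1.5-fold, as 10.7% of genes tested did, and this count was 2 without CTR B, CTR C or DAT C. The Rela call was lost in forward-strand counts (log2 fold change 0.15, edgeR adjusted p = 0.0748) and with library size alone as the scaling (0.11, adjusted p = 0.0784).

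Scaling by library size alone, in place of the TMM method, shifted the median log2 fold change of all genes to -0.15 for DAT against CTR and to 0.20 for CX3 against DAT, from -0.0038 and 0.010. Of the genes called, 53.4% were higher in DAT than in CTR with TMM and 37.8% with library size alone. In CX3 against CTR these shares were 45.9% and 58.9%, and in CX3 against DAT 46.8% and 66.7%. Nfkbia, Ikbke, Tnfaip3 and Bcl3 kept their direction in DAT against CTR under every alternative run, with log2 fold changes of -1.17 to -0.99, -2.12 to -1.79, -0.98 to -0.75 and -0.79 to -0.59.

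T cell markers and B lineage markers also moved with DAT. The 7 T cell markers summed to 57.7 to 58.4 CPM in CTR, 45.9 to 49.5 in CX3 and 14.9 to 16.7 in DAT. All 7 were lower in DAT than in CTR, as were 27.9% of all genes tested. The 6 B lineage markers summed to 304 to 323 CPM in CTR, 73.2 to 78.0 in CX3 and 10.7 to 14.1 in DAT. Jchain alone made up most of these sums, with 298, 71.9 and 8.79 CPM on average in CTR, CX3 and DAT. All 6 were lower in CX3 and in DAT than in CTR. Between CX3 and DAT, 2 of the 6 were higher in CX3 and 4 were not called. Markers of neurons summed to 3332 to 3350 CPM in CTR and 5192 to 5257 in DAT. The part of these cells in the lower Ikbke, Tnfaip3 and Bcl3 of DAT was not tested.

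**Figure D2:**
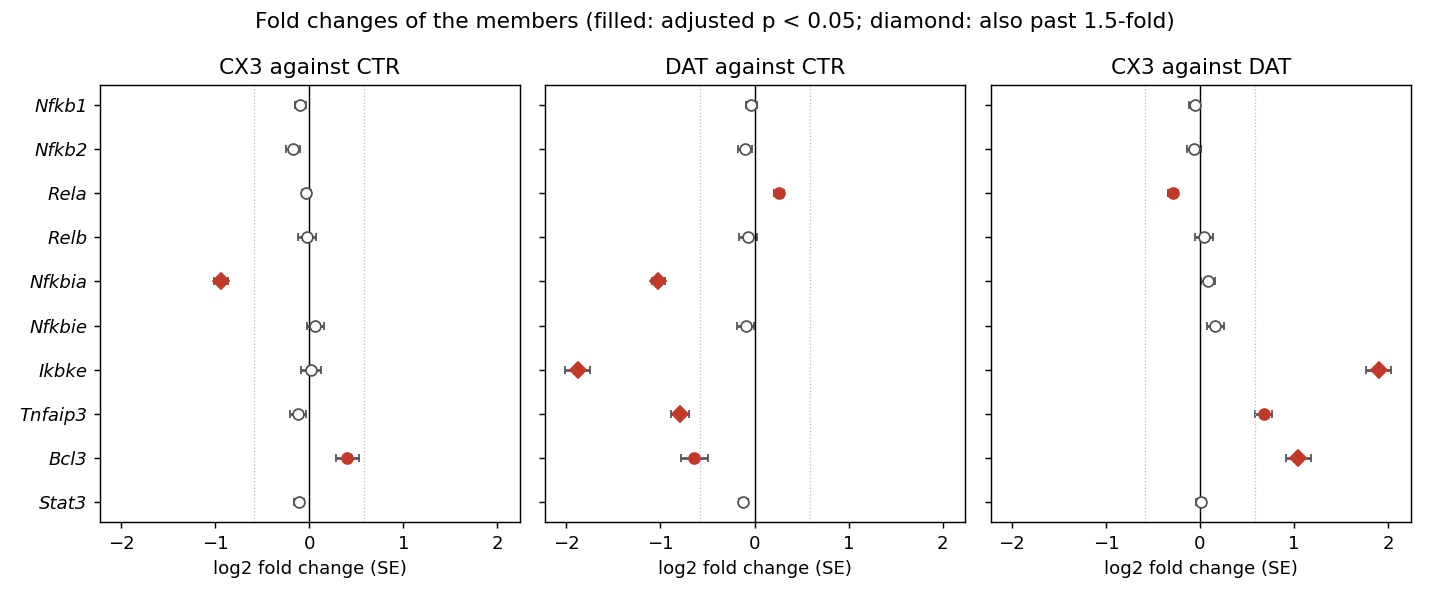
Log2 fold changes (horizontal axes) of the 10 members in the 3 comparisons, with whiskers for the SE; filled symbols have an edgeR adjusted p under 0.05, diamonds are also past 1.5-fold and dotted lines mark 1.5-fold. Nfkbia is lower against CTR in CX3 and in DAT, while Ikbke, Tnfaip3 and Bcl3 are lower in DAT than in both other groups.

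CX3 against DAT sets the same vector in the 2 Cre lines side by side, with tamoxifen described for CX3 only. Ikbke was 3.73-fold higher in CX3 (log2 fold change 1.90 ± 0.14 SE, edgeR adjusted p = 3.15e-08), Bcl3 was 2.06-fold higher (1.05 ± 0.14 SE, adjusted p = 1.40e-05) and Tnfaip3 was 1.60-fold higher (0.67 ± 0.09 SE, adjusted p = 2.06e-05). For these 3 genes every CX3 library was above every DAT library. Rela had 28.6, 26.9 and 27.6 CPM in CX3, below all DAT libraries, and fell by 0.29 ± 0.05 (SE) on the log2 scale (edgeR adjusted p = 0.000224). Thus 3 of 10 members were higher in CX3 and 1 was lower, where 27.6% of genes tested were higher and 31.3% lower. Ikbke and Bcl3 passed 1.5-fold, as 9.93% of genes tested did in that direction. With the DESeq2 test, and in forward-strand counts, 1 member passed 1.5-fold. Without DAT B, 3, 5 and 5 members were called in CX3 against CTR, DAT against CTR and CX3 against DAT. All genes called then numbered 8588, 13389 and 13254. Without CX3 A, 2, 6 and 4 members were called, with all genes called inside the ranges given in the closing section.

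Nfkbia, the member that fell in CX3 and in DAT against their shared control, did not pass the test between CX3 and DAT. Its libraries overlapped, and the difference was 0.08 ± 0.07 (SE) on the log2 scale (edgeR adjusted p = 0.350). Without DAT B, the DAT library with the highest Nfkbia, it was 0.17 ± 0.06 (SE) higher in CX3 and passed the test (edgeR adjusted p = 0.0229), as it did with library size alone (0.28, adjusted p = 0.00536). The Rela call was lost in reverse-strand counts (log2 fold change -0.16, edgeR adjusted p = 0.0550) and with library size alone (-0.09, adjusted p = 0.129).

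The remaining subunits did not pass the test in any of the 3 comparisons. Nfkb1, the gene of p105 and p50, had 35.5, 38.6 and 38.2 CPM in CTR, 35.7, 32.8 and 36.7 in CX3 and 37.3, 35.2 and 36.9 in DAT. Relb, the subunit of the non-canonical branch, had 9.49, 10.3 and 9.20 CPM in CTR, 10.3, 9.68 and 8.65 in CX3 and 9.08, 8.45 and 10.2 in DAT. For both genes the libraries of all groups overlapped. Nfkb2, the gene of p100 and p52, had 9.79, 9.83 and 9.73 CPM in CTR, 8.98, 8.92 and 8.20 in CX3 and 9.38, 8.90 and 9.00 in DAT. The CX3 and DAT libraries of Nfkb2 all lay below those of CTR, at log2 fold changes of -0.17 ± 0.07 (SE, edgeR adjusted p = 0.0947) and -0.10 ± 0.08 (SE, adjusted p = 0.262), but both signs turned in the counts of either strand. With library size alone, Nfkb1 (log2 fold change -0.18, edgeR adjusted p = 0.0142) and Nfkb2 (-0.25, adjusted p = 0.0114) passed the test in DAT against CTR, and Relb (0.24, adjusted p = 0.0419) in CX3 against DAT.

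Nfkbie, which encodes the inhibitor IκBε, had 6.17, 6.32 and 5.67 CPM in CTR, 6.36, 6.47 and 6.22 in CX3 and 5.65, 5.63 and 5.75 in DAT. Its CX3 libraries were above its DAT libraries by 0.16 ± 0.09 (SE) on the log2 scale (edgeR adjusted p = 0.137), and its libraries in CTR overlapped those of both other groups. In contrast to Nfkbia, its log2 fold change was 0.07 ± 0.09 (SE) in CX3 against CTR (edgeR adjusted p = 0.598) and -0.09 ± 0.09 (SE) in DAT against CTR (adjusted p = 0.388). With library size alone, Nfkbie passed the test in CX3 against DAT (log2 fold change 0.36, edgeR adjusted p = 0.00322) and in DAT against CTR (-0.24, adjusted p = 0.0329).

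Stat3 had 94.5, 92.2 and 93.1 CPM in CTR, 82.5, 89.7 and 87.4 in CX3 and 90.6, 80.0 and 86.7 in DAT. All 6 libraries with the Synuclein-expressing vector lay below the lowest CTR library, while CX3 and DAT overlapped. The log2 fold change was -0.11 ± 0.05 (SE) in CX3 against CTR (edgeR adjusted p = 0.135) and -0.12 ± 0.05 (SE) in DAT against CTR (adjusted p = 0.0678), so neither passed the test. Both kept their sign under every alternative run, at -0.13 to -0.06 and -0.26 to -0.07. The difference from CTR passed the test with only the libraries of the groups compared in the fit, for CX3 (edgeR adjusted p = 0.0253) and for DAT (0.0419). It also passed for CX3 without DAT B (edgeR adjusted p = 0.0332) and for DAT without CX3 A (0.0294), CX3 C (0.0462) or DAT A (0.0134), and for DAT also in the counts of either strand (0.0261 and 0.00374) and with library size alone (0.000535). Stat3 was higher in CX3 than in DAT with library size alone (log2 fold change 0.20, edgeR adjusted p = 0.00353) and in forward-strand counts (0.15, adjusted p = 0.0499).

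Levels can be compared between genes only per exon length, as TPM, counts per exon length scaled to a common total. In CTR, Nfkbia was highest with 153 ± 6.88 TPM (SD, n = 3), followed by Stat3 with 31.5 ± 0.404, Rela with 29.6 ± 0.291, Nfkb1 with 9.99 ± 0.456, Relb with 8.02 ± 0.474, Nfkb2 with 6.88 ± 0.0243 and Nfkbie with 6.40 ± 0.351. Tnfaip3 with 4.79 ± 0.207, Bcl3 with 4.19 ± 0.151 and Ikbke with 2.32 ± 0.244 TPM closed the order, and no neighbours overlapped between libraries. In CX3 the order was the same for the first 5 genes, with 83.9 ± 6.28 TPM for Nfkbia, while Stat3 and Rela, and Nfkb2 and Bcl3, overlapped. Bcl3 stood above Tnfaip3 there, at 5.86 ± 0.753 against 4.65 ± 0.338 TPM. In DAT, Nfkbia still led with 68.0 ± 3.33 TPM, Rela stood above Stat3 with 32.0 ± 2.64 against 26.3 ± 2.86, and Ikbke was last with 0.563 ± 0.0512 TPM. Relb and Nfkb2, Nfkb2 and Nfkbie, and Tnfaip3 and Bcl3 overlapped in DAT.

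To set the members in their pathway, 79 further genes were listed, of which 77 passed the filter. They were 40 other NF-κB pathway genes, 16 textbook NF-κB target genes and 24 genes from the interleukin-6 family to Stat3, with Il6 on the last 2 lists. Il6 itself, at 0.0826 to 0.169 CPM on average in the groups, was not tested. The lists were drawn up with earlier results of these data known, so their counts are descriptions.

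In CX3 against CTR, 6 of the 40 pathway genes rose and 4 fell, where 14.0% of all genes tested rose and 16.5% fell, with a median log2 fold change of -0.02 beside -0.0033 for all genes tested. Of 15 target genes tested, 3 rose and 2 fell, with a median of 0.05. Of the pathway genes, 3 rose without CX3 C and in reverse-strand counts, 7 fell without DAT B, and 8 fell with only the 2 groups compared in the fit. Without CX3 A, 4 rose and 5 fell. The interleukin-6 list had 4 genes higher and 9 lower of 22, with a median of -0.14. The 5 genes listed as textbook Stat3 targets all fell in this comparison, although Stat3 did not pass the test. In the counts of either strand 4 of them fell, where Junb was not called. The 4 inhibitor genes of the list were counted apart from the targets, so the count of targets rests on how the list was divided. Of these inhibitors, 3 rose. Among these was Socs3, named here after its values were seen, with 6.37 to 7.78 CPM in CTR and 9.04 to 9.59 in CX3. The Socs3 call was lost in forward-strand counts (log2 fold change 0.32, edgeR adjusted p = 0.0759).

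Lcn2, which encodes the iron-carrier protein lipocalin 2, had 21.2, 20.5 and 19.6 CPM in CTR and 2.75, 2.86 and 2.60 CPM in CX3. It fell by 2.90 ± 0.09 (SE) on the log2 scale (edgeR adjusted p = 9.01e-12). Gfap, the astrocyte intermediate filament gene, had 2335 to 2394 CPM in CTR and 1169 to 1201 in CX3 and fell by 1.00 ± 0.03 (SE, edgeR adjusted p = 2.39e-11). Timp1, a metalloproteinase inhibitor gene, had 5.80 to 7.53 CPM in CTR and 2.53 to 3.06 in CX3 and fell by 1.30 ± 0.17 (SE, edgeR adjusted p = 4.84e-05). Of the 6 astrocyte markers, 5 were lower in CX3 as well, and their part in these falls was not tested. Socs1, a feedback inhibitor of Janus kinases, went the other way, from 3.81, 4.31 and 3.80 CPM in CTR to 10.2, 10.7 and 9.71 CPM in CX3, a rise of 1.35 ± 0.11 (SE) on the log2 scale (edgeR adjusted p = 6.26e-07).

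In DAT against CTR, 8 of the 40 pathway genes rose and 23 fell, where 32.0% of all genes tested rose and 27.9% fell, with a median log2 fold change of -0.26 beside -0.0038 for all genes tested. With library size alone, 3 rose and 28 fell, and 3 rose also in the counts of either strand, while 5 rose without CTR A or without DAT A. Of the 15 target genes, 3 rose and 9 fell, with a median of -0.72. All 5 ligand genes on the pathway list fell, as did 3 of its 6 receptor genes, beside the 27.9% of all genes that fell. Of the ligands, named here after their values were seen, Cd40lg had 0 to 4 counts a library in DAT. Lta had 2 to 8 and Tnfsf11 had 5 to 7 there, which limits their precision. Tnf, the archetypal NF-κB activating cytokine, had 1.38, 1.48 and 1.40 CPM in CTR and 0.165, 0.352 and 0.176 CPM in DAT, which is 4 to 7 counts a library (log2 fold change -2.70 ± 0.31 SE, edgeR adjusted p = 4.39e-06). Ccl2, a monocyte chemokine gene among the targets, had 5.22, 5.08 and 5.47 CPM in CTR and 0.877, 1.21 and 0.965 in DAT (log2 fold change -2.40 ± 0.15 SE, edgeR adjusted p = 8.61e-09). Tnip3, a partner of A20, was lower as well (edgeR adjusted p = 0.00152), from 15 to 20 counts a library in CTR to 0, 4 and 3 counts in DAT.

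The interleukin-6 list had 4 genes higher and 11 lower of 22 in DAT against CTR, where 32.0% of all genes tested rose and 27.9% fell. Its median was -0.32 beside -0.0038 for all genes tested, and 6 of its genes were higher without DAT B. Of the 5 genes listed as Stat3 targets, 4 fell and 1 rose under every alternative run. Lcn2 had 1.29, 1.51 and 1.58 CPM in DAT and fell by 3.83 ± 0.10 (SE) on the log2 scale (edgeR adjusted p = 1.59e-12). The target that rose was Junb, an AP-1 subunit gene named here after its values were seen, with 26.3 to 26.6 CPM in CTR, 18.7 to 20.9 in CX3 and 31.8 to 37.9 in DAT.

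In CX3 against DAT, 22 of the 40 pathway genes were higher in CX3 and 5 lower, where 27.6% of all genes tested were higher and 31.3% lower, with a median of 0.26 beside 0.010 for all genes tested, and with library size alone the counts were 30 and 2. In the counts of either strand, and with every gene of at least 1 count kept, 3 were lower. Of the 15 target genes, 9 were higher and 2 lower, with a median of 0.60, and 1 was lower in most alternatives, among them each library left out except CX3 B and DAT B. In the interleukin-6 list, 12 of 22 genes were higher and 6 lower, with a median of 0.38. The largest differences on these lists were those of Tnf (log2 fold change 3.01 ± 0.30 SE, edgeR adjusted p = 9.37e-07), Tnip3 (adjusted p = 0.000285), Il1b (2.53 ± 0.22 SE, adjusted p = 2.52e-07) and Ccl2 (2.42 ± 0.15 SE, adjusted p = 7.14e-09). Il1b, the gene of interleukin-1β, had 1.95, 2.34 and 2.11 CPM in CX3 and 0.439, 0.352 and 0.263 in DAT, with no overlap. In CTR it had 1.12, 1.13 and 1.13 CPM. The DAT values of Il1b rest on 6 to 16 counts a library, which limits their precision.

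A few genes closest to the members were named after their values were seen. Chuk, the gene of the kinase IKKα of the non-canonical branch, had 55.7, 55.3 and 56.4 CPM in CTR, 55.1, 55.6 and 53.4 in CX3 and 26.1, 26.5 and 26.9 in DAT. It was 2.11-fold lower in DAT than in CTR (log2 fold change -1.08 ± 0.05 SE, edgeR adjusted p = 1.90e-10). Rel, the gene of the c-Rel subunit, fell by 0.60 ± 0.13 (SE) on the log2 scale in DAT (edgeR adjusted p = 0.0010), and the atypical IκB genes Nfkbiz and Nfkbid fell by 0.73 ± 0.11 and 0.86 ± 0.19. Nfkbib, the gene of IκBβ, was 0.25 ± 0.08 (SE) higher in DAT (edgeR adjusted p = 0.0155), a call lost without CTR A, CTR C or DAT A, with library size alone (log2 fold change 0.10, edgeR adjusted p = 0.282) and in reverse-strand (0.16, adjusted p = 0.144) and forward-strand counts (0.098, adjusted p = 0.370).

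**Figure D3:**
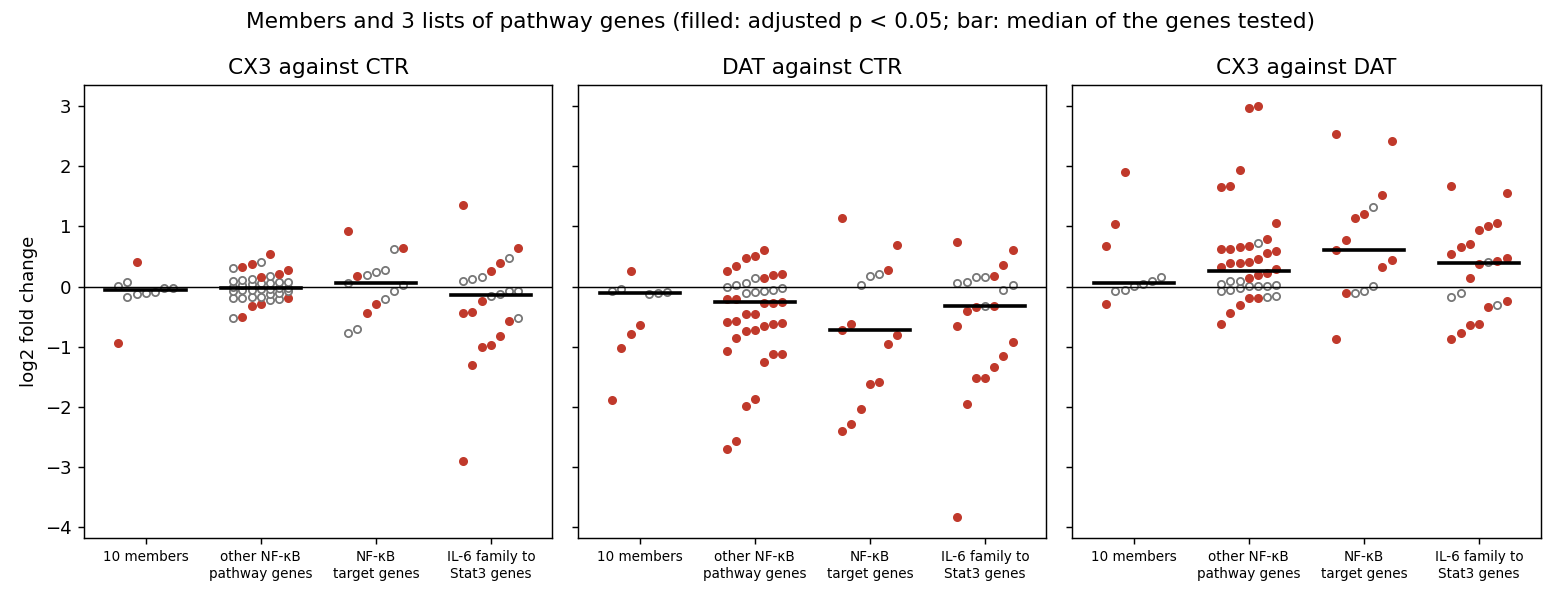
Log2 fold changes (vertical axis) of the 10 members and of the tested genes of the 3 lists in the 3 comparisons; each point is a gene, filled where the edgeR adjusted p is under 0.05, and bars are medians. In DAT against CTR the median is -0.26 for the other pathway genes and -0.72 for the targets, and in CX3 against CTR it is -0.02 and 0.05.

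**Figure D4:**
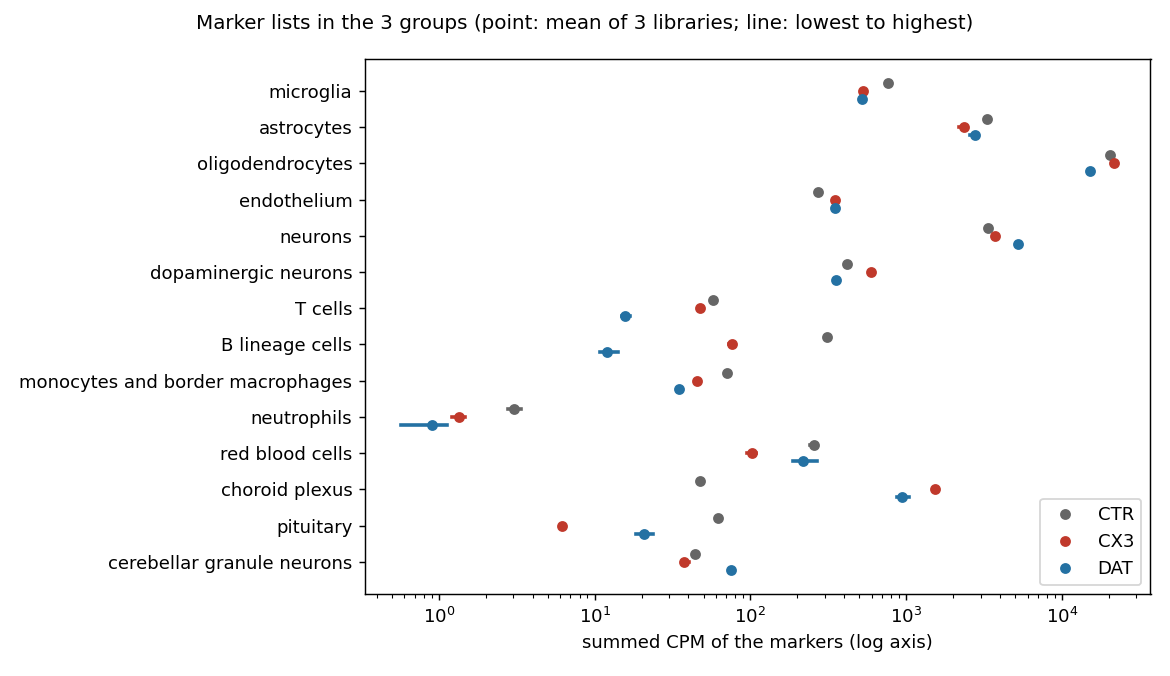
Summed CPM (horizontal log axis) of marker lists for 14 cell types or tissues in CTR, CX3 and DAT; points are means of 3 libraries and lines run from the lowest to the highest. The sum of microglial markers is highest in CTR, and the sums of T cell and B lineage markers are lowest in DAT. Most of the B lineage sum is Jchain.

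Markers of choroid plexus and pituitary differed between the groups too. Choroid plexus markers summed to 46.5 to 47.5 CPM in CTR, 1475 to 1584 in CX3 and 874 to 1044 in DAT. Of these 6 markers, 5 were higher in CX3 and in DAT than in CTR, and Otx2 had 12.1, 12.7 and 12.6 CPM on average in CTR, CX3 and DAT. Pituitary markers summed to 61.3 to 64.0 CPM in CTR, 6.09 to 6.44 in CX3 and 18.5 to 23.6 in DAT, but did not move together. Gh had 34.7 CPM on average in CTR, 0.217 in CX3 and 0.103 in DAT, and Prl had 5.85 CPM in CTR, 0.0539 in CX3 and no count in DAT. Pomc had 17.9 CPM in CTR, 2.73 in CX3 and 17.2 in DAT, so it made up most of the DAT sum. Cx3cr1, the gene whose promoter drives Cre in CTR and CX3, had 102 CPM on average in CTR, 44.6 in CX3 and 83.4 in DAT. The part of these differences in the members' levels was not tested.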

How the data were processed

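The authors deposited counts of reads per gene for each library, not normalized. Per the labels, reads were trimmed with Trimmomatic and aligned with STAR to mm10, and featureCounts was named for counting, while the deposited tables are laid out as STAR writes gene counts. Versions are not given in the sources used here. The column without regard to strand was used. All 55450 gene IDs were found in GENCODE M21. Rows that name no gene (unmapped, multimapping, no feature, ambiguous) were left out. Reads on no feature were 7.47% to 7.61% of a library in CTR, 6.39% to 7.73% in CX3 and 4.15% to 4.31% in DAT. Genes with any count numbered 35401 to 36463 in CTR, 31143 to 31777 in CX3 and 26475 to 28764 in DAT. These differences between libraries follow the groups, and their part in the comparisons was not tested.

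One edgeR 4.0.16 fit in R 4.3.3 covered the 9 libraries (quasi-likelihood test, TMM scaling, filterByExpr), with Benjamini-Hochberg adjustment over 20892 genes and calls at an adjusted p under 0.05; glmTreat tested against 1.5-fold. DESeq2 1.42.0 was an alternative. TPM used union exon lengths, with bases shared with other genes included. The scripts were tested on simulated data, where genes at low counts were often missed and, in the draw kept, the share of false calls was above the nominal rate; the recovery required was restricted to better expressed genes after the first run missed it. Figures used matplotlib 3.10.9. Fold changes of the members and of 18 list genes, and counts of calls, were recomputed under the alternatives given in the closing section. The members and lists were chosen with earlier results of these data known. All members were named, and of the lists the 4 called genes with the largest change in each comparison; others are said to be named after their values were seen. The 9 libraries are all used; the transgenes are not among the counted mouse genes. Motifs were searched with Python 3.11.15.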

Additional observations from a re-analysis of the deposited data

How the results depend on the processing

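The counts of genes, members and list genes called and the fold changes of the members and of 18 list genes were recomputed with DESeq2 size factors or library size alone as scaling, 2 other gene filters, the DESeq2 test, the counts of either strand, only the groups compared, a replicate block and each library left out. Marker sums, marker calls and list medians were not. Of the members' fold changes under these alternatives, 493 kept sign and side of the threshold, 18 gained a call, 8 lost one and 21 changed sign, all of the last for members not called. Of the 18 list genes' fold changes, 795 kept both and 13 lost a call. Of these losses, 6 were for Nfkbib, 3 for Cd40, 2 for Junb and 1 each for Nfkbid and Socs3. Cd40, Cebpd and Osmr are not described above. Leaving out a library gave 1 to 3 members called in CX3 against CTR, 5 to 6 in DAT against CTR and 4 to 5 in CX3 against DAT, and 1, 2 to 3 and 2 past 1.5-fold. All genes called numbered 4638 to 8588, 11259 to 13389 and 11265 to 13254, and 415 to 620, 3322 to 4061 and 3281 to 3975 past 1.5-fold. In CX3 against CTR, forward-strand counts gave 1 member called. With library size alone, 8 members were called in DAT against CTR, where 4890 of all genes tested were called higher and 8045 lower. In CX3 against DAT the same scaling gave 7 members called, beside 8916 genes called higher and 4444 lower. There the DESeq2 test and forward-strand counts gave 1 member past 1.5-fold each.

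These values of members not called changed sign, on the log2 scale. In CX3 against CTR, Nfkb2 had 0.0744 (reverse strand) and 0.00252 (forward strand), Rela had 0.0176 (library size alone), 0.00802 (genes with at least 1 count) and 0.0550 (reverse strand), Relb had 0.0246 (library size alone), 0.0149 (genes with at least 1 count), 0.0594 (forward strand) and -0.0835 to 0.0460 with libraries left out, and Ikbke had -0.0673 to 0.0994 with libraries left out. In DAT against CTR, Nfkb2 had 0.191 (reverse strand) and 0.122 (forward strand). In CX3 against DAT, Nfkb1 had 0.136 (library size alone), 0.0463 (reverse strand) and 0.00548 (forward strand), Nfkb2 had 0.126 (library size alone), and Stat3 had -0.0276 to 0.0712 with libraries left out. The cause was not tested.

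No pairing of the libraries by the letters A, B and C was seen. Deviations of libraries with the same letter correlated at -0.160 to 0.0398, and those with different letters at -0.124 to 0.159. With 3 libraries a group, this check could not exclude a shared batch. With the letter as a block, 2, 5 and 4 members were called in the 3 comparisons, as without it, of 5805, 12144 and 11955 genes called. The loss of Bcl3 in CX3 and of Rela calls is described with the results. List counts were recomputed after the data were seen. Ikbke in DAT rests on 33 to 66 counts a library and Tnf on 4 to 7, which limits their precision.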
